A study of Mus musculus with 4 samples.

Results

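Bex1 and its 3 paralogs Bex2, Bex4 and Ngfrap1 were followed in hearts of mice that lack Jun in striated muscle. The members were taken as every probe set whose single gene symbol in the platform annotation is one of these names, with Ngfrap1 written there as Bex3. That gave 1 probe set per gene, so 4 of the 45037 probe sets tested, and no probe set with several symbols held a member. Bex1 had been picked for its difference between the genotypes in these same arrays, so its values are given as a description with no test. The paralogs were added for their kinship.

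The 4 arrays were single hearts of mice 10 weeks old, 2 per genotype. Their background was mixed 129/Ola-C57BL/6 and the labels name no treatment. Junf/f mice carry floxed Jun alleles and no Cre. Jun delta mu mice carry the same floxed alleles and in addition Cre. The methods name littermates as the animals used. That Cre, which is driven by the muscle creatine kinase promoter, removes floxed Jun from heart and skeletal muscle fibres, so that fibroblasts, vessel cells, nerves and blood cells of the heart keep the gene. Growth notes attached to the samples describe plated ventricular cells, whereas titles, source and methods name whole hearts, and the conflict was not resolved. Labels do not say that the 2 hearts of a genotype came from separate litters, so p-values speak for these hearts alone.

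Bex genes (brain expressed, X-linked) encode small, poorly structured proteins of placental mammals and lie close together on the X chromosome beside the related Tceal genes. They are best known from neurons. Ngfrap1 was named for binding the intracellular part of the p75 neurotrophin receptor, where it was linked to cell death, and Bex1 has been tied to the same receptor, to muscle regeneration and, in failing hearts, to complexes that hold AU-rich transcripts stable.

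The arrays carried the labels' difference in Jun itself. Its brighter probe set read 8.297 and 8.999 on the log2 scale in the Junf/f hearts and 7.021 and 7.143 in the Jun delta mu hearts, and the other read 7.78 and 8.15 against 6.58 and 6.86. Cardiac muscle genes defined the tissue on all arrays, with Myh6, the main myosin heavy chain of the adult mouse heart, between 14.67 and 14.72. Array medians lay between 5.45 and 5.47. Junf/f replicate 1 correlated with the other arrays at 0.994 to 0.995 across probe sets, against 0.997 among the rest. Probe sets were fitted with limma. Its standard errors, intervals and p-values draw the spread of each probe set towards that of all probe sets. Passing the study's threshold means here a change above 1.3-fold and, in that fit, an unadjusted p under 0.05. Of all probe sets 688, or 1.53%, passed, with 0.959% lower and 0.568% higher in Jun delta mu hearts. None reached an adjusted p under 0.05 by limma or by the methods' t-test, while 2326, or 5.16%, had an unadjusted p under 0.05 by limma. The adjusted p from limma was 0.896 for both probe sets of the deleted Jun too. An adjusted p of this size therefore does not tell a change from none on these arrays.

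Bex1 had the largest decrease from control to knockout hearts of any probe set on the arrays, and it is the value for which it was chosen. Its probe set read 7.45 on Junf/f replicate 1 and 7.44 on Junf/f replicate 2, against 4.05 on Jun delta mu replicate 1 and 5.36 on Jun delta mu replicate 2. The groups were therefore far apart, and the knockout hearts also stood apart from each other. The mean was 7.45 ± 0.00 (SD, n = 2) in Junf/f and 4.71 ± 0.92 (SD, n = 2) in Jun delta mu hearts, a log2 difference of -2.74. By the difference of the log2 means, which is a geometric average, 15.0% of the control signal was left, with 9.53% in the first knockout heart and 23.5% in the second. With linear means the log2 difference was -2.60. Among all 45037 probe sets the difference ranked 1 among decreases, and the distance of 2.09 between the lower control array and the higher knockout array was the largest as well. Mybpc2, the fast skeletal form of myosin binding protein C, came next by size at -2.30, and Jun itself stood at -1.57 by its brighter probe set. In bulk hearts, fewer cells of a type and less RNA per cell cannot be told apart.

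**Figure D1:**
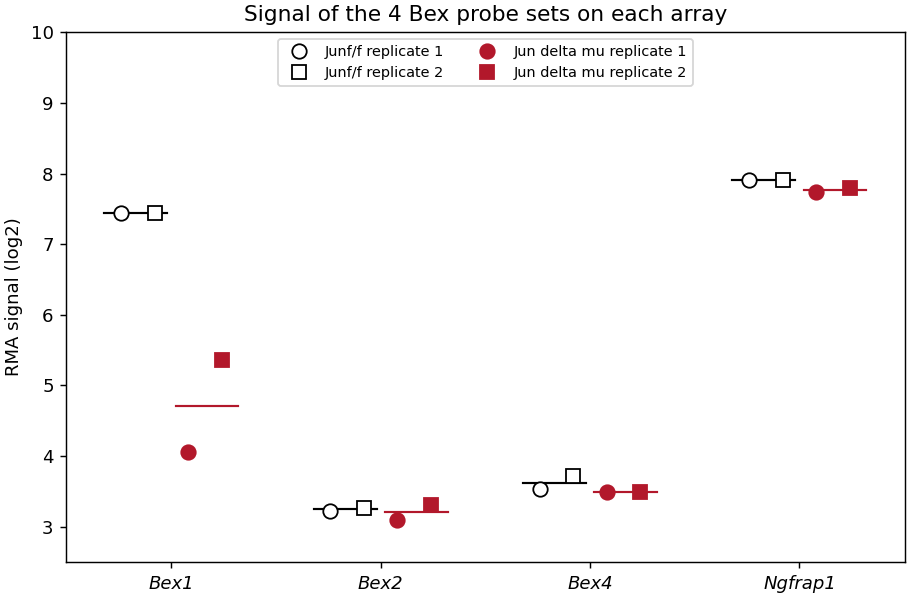
RMA signal (log2) of the Bex1, Bex2, Bex4 and Ngfrap1 probe sets on each of the 4 arrays, with open black symbols for Junf/f hearts, filled red symbols for Jun delta mu hearts, round symbols for the first replicate and square ones for the second, and a short line at each group mean. Bex1 drops from 7.45 to 4.05 and 5.36, whereas the signals of each paralog lie within 0.22 of each other; heights of different probe sets are not comparable as amounts of RNA.

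The position of these values on the arrays bears on how they can be read. In control hearts Bex1 lay above 73.5% and 74.1% of probe sets. It lay above 48.2% in Jun delta mu replicate 2 and above 24.4% in Jun delta mu replicate 1, among the dimmer probe sets. The deposited values carry no detection calls, so whether Bex1 was still detected in the first knockout heart was not tested.

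The spread of Bex1 differed between genotypes. The control arrays were 0.0035 apart, and only 1.71% of probe sets had control arrays closer together, while the knockout arrays were 1.302 apart. The median gap over all probe sets was 0.14 for the control pair and 0.10 for the knockout pair, and only 38 probe sets had knockout arrays more than 1 apart. Bex1 ranked 20 in that order. At its head were the atrial muscle genes Myl7, Sln and Myl4, which were higher by 4.09, 4.01 and 2.99 on Jun delta mu replicate 2, the heart with more Bex1 signal. The list of 7 atrial markers had a mean log2 signal of 6.70 and 6.98 on the control arrays, 6.86 on Jun delta mu replicate 1 and 8.67 on Jun delta mu replicate 2. Dkk3 read 4.71 on Jun delta mu replicate 1 and 5.39 on replicate 2. On the same arrays Bmp10 read 6.51 and 6.64, Nppa 12.34 and 12.79, and Kcnj3 9.29 and 9.64, also higher on replicate 2. Between genotypes Bmp10, Nppa and Kcnj3 differed by 0.06, 0.42 and -0.26. None of the 7 passed the threshold on all arrays. Their median difference was 0.53, with 0.87 without Jun delta mu replicate 1 and 0.12 without Jun delta mu replicate 2. The part of atrial tissue in the Bex1 values was not tested. Without Jun delta mu replicate 2 the Bex1 difference was -3.39, and without Jun delta mu replicate 1 it was -2.09, whereas leaving out either control array left it at -2.74.

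**Figure D2:**
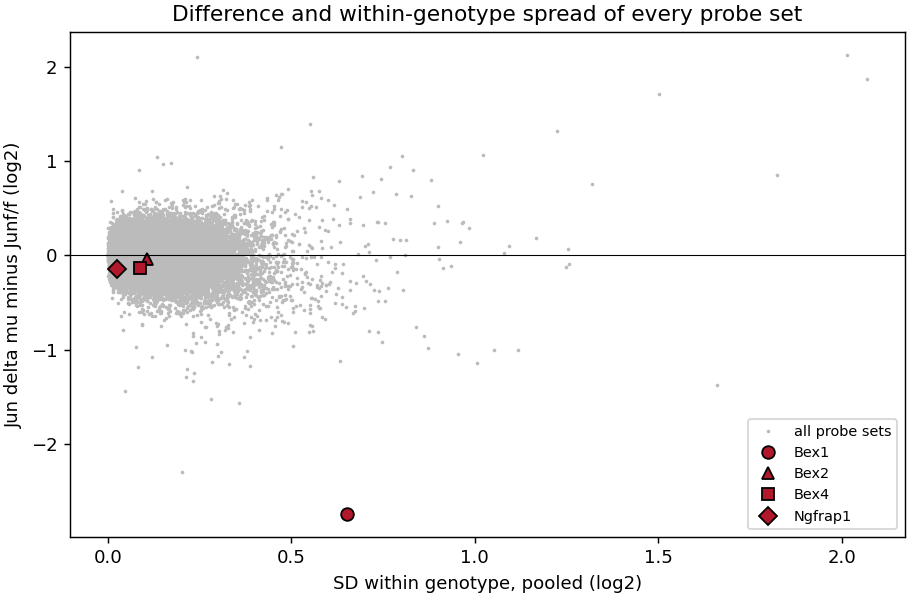
Each grey point is 1 probe set, with its pooled SD within genotype (log2) on the horizontal axis and Jun delta mu minus Junf/f (log2) on the vertical axis; red symbols mark the 4 Bex genes. Bex1 is the lowest point of the plot at -2.74, and its 3 paralogs lie inside the main cloud.

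Bex1 had the largest decrease of all probe sets, the value for which it was chosen, so no paralog could have fallen as far. The lower ends of the 95% intervals of all 3 paralogs lay at -0.38 or closer to 0. Ngfrap1, the receptor-binding member, had a clear signal on every array, above 77.1% to 78.8% of probe sets. It read 7.90 and 7.91 in Junf/f hearts and 7.74 and 7.79 in Jun delta mu hearts. Both knockout hearts were below both controls, but by little. The difference was -0.14 (standard error 0.09), with a 95% interval from -0.36 to 0.08. It did not pass the threshold (limma, unadjusted p = 0.159, adjusted p = 0.896). By the methods' t-test its unadjusted p was 0.0273, at a change below 1.3-fold.

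Bex4 and Bex2 were dim on all arrays. Bex4 read 3.54 and 3.71 in Junf/f hearts and 3.49 on each Jun delta mu array. It lay above 13.2% and 16.3% of probe sets on the control arrays and above 11.5% and 11.2% on the knockout arrays. Its groups did not overlap, at a difference of -0.13 (standard error 0.10, 95% interval -0.38 to 0.12; limma, adjusted p = 0.907). Bex2 read 3.22 and 3.27 against 3.10 and 3.31, above 3.69% to 7.36% of probe sets, and its groups overlapped. The Bex2 difference was -0.04 (standard error 0.11, 95% interval -0.31 to 0.23, limma, unadjusted p = 0.718, adjusted p = 0.979). Without Jun delta mu replicate 1 it was 0.06, so its direction depends on that heart. Signals this close to the lower end of the arrays leave little room for a decrease to show. None of the 3 paralogs passed the threshold, and none had an unadjusted p under 0.05 by limma. Both knockout arrays lay below both controls for Bex4 and Ngfrap1, as they did for 16.7% of all probe sets, and in either direction groups did not overlap for 33.9%.

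The sequences in front of the 4 genes fall into pairs that the choice of members did not use. RefSeq's promoter windows on GRCm38.p6 were read for all 4 members and span 300 bases, 250 before the annotated start and 50 after it. Those of Bex1 and Bex4 shared a stretch of 290 bases without gaps, identical at 287 of them, and those of Bex2 and Ngfrap1 shared 199 bases, identical at 197. The longest like stretch between genes of different pairs was 16 bases. The shared stretches upstream of both starts of a pair are shown because Bex1, with its large difference, and the dim Bex4 have nearly the same upstream sequence. They are written 5′ to 3′ on each gene's strand, in lower case, with capitals at the bases where the 2 genes of a pair differ.
Bex1 (chrX:136215514-136215753, minus strand): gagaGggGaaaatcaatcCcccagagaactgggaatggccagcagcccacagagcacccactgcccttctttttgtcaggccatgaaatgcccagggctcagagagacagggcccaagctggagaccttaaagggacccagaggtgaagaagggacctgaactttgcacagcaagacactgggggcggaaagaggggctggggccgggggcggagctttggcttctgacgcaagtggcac
Bex4 (chrX:136138750-136138989, plus strand): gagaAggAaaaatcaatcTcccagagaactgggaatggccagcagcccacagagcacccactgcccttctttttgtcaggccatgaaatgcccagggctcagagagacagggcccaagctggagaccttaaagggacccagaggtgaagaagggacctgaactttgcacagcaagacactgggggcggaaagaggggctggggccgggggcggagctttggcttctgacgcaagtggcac
Bex2 (chrX:136068237-136068385, minus strand): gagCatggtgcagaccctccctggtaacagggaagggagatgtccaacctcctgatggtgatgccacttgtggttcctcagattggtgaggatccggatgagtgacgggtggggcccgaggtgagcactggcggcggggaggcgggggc
Ngfrap1 (chrX:136270067-136270215, plus strand): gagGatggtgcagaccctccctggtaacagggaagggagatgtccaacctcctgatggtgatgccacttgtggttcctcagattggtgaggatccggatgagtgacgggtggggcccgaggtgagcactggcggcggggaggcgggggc
In the first pair 3 of 240 bases differ, all of them at the far end from the gene, and in the second 1 of 149. Bex1 and Bex4 lie on opposite strands, as do Bex2 and Ngfrap1. The binding motif of AP-1, the dimer in which c-Jun acts, was searched on both strands as TGANTCA and the cyclic AMP response element, which c-Jun can bind with Atf partners, as TGACGTCA, forms that do not overlap each other. Neither was found in the windows of the 4 members, nor in that of Jun. The first occurs in 7.81% and the second in 1.79% of 32851 promoter windows of the same length. No match says only that these letters are not in these windows. The probe sequences were not used here, so whether probe sets of so similar genes also bind each other's transcripts was not tested.

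That no gene around Bex1 fell as far was fixed by the choice of Bex1, which had the largest decrease of all probe sets. Bex2 lies at positions 136066565 to 136068236 of chromosome X on GRCm38, Bex4 at 136138996 to 136140443, Bex1 at 136213972 to 136215513 and Ngfrap1 at 136270253 to 136271978, together a span of 205 kb. The annotation places a predicted gene, LOC115489115, within Bex1, and the start of Bex4 overlaps the RNA export factor gene Nxf3. Within 500 kb on either side of the cluster 17 other genes had a named probe set. None passed the threshold by limma or by the methods' t-test, 9 had a difference below 0, and the median difference was -0.02 against 0.00 over all probe sets. The nearest measured neighbours of Bex1 are 3 Tceal genes, relatives of a transcription elongation factor. These 3, and Bex4 and Ngfrap1 on either side of them, read lower on both knockout arrays than on both controls, as 16.7% of all probe sets did. None of the 5 passed the threshold or had an unadjusted p under 0.05 by limma, and they were picked out after the values were seen. Tceal9, also known as Wbp5, read 9.06 and 8.84 against 8.76 and 8.71, a difference of -0.21. Tceal8 read 8.57 and 8.43 against 8.37 and 8.31, at -0.16, and the dim Tceal7 was at -0.10. All 3 lay below 1.3-fold and had an unadjusted p from limma of 0.106 to 0.324 and an adjusted p of 0.896 to 0.920. In the other direction, 5730412P04Rik, between Bex2 and Bex4, read 4.34 and 4.30 against 4.58 and 4.76. Its difference of 0.35 was the only 1 of the 17 with an unadjusted p under 0.05 by limma (adjusted p = 0.896), and without Jun delta mu replicate 1 it passed at 0.44. Gprasp2, with 4.21 and 4.86 against 4.37 and 4.42, passed at -0.46 without Junf/f replicate 1, and its groups overlapped on all arrays.

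**Figure D3:**
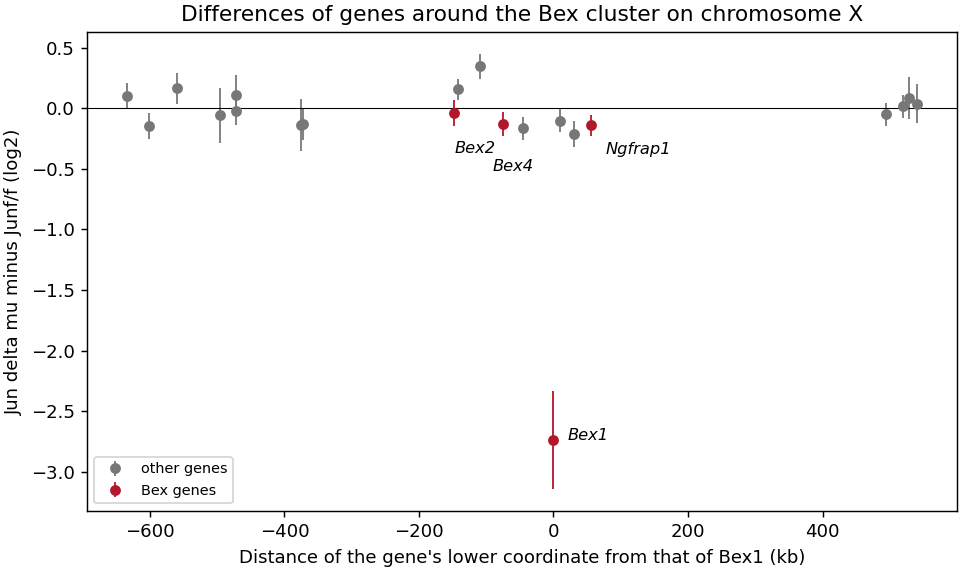
Jun delta mu minus Junf/f (log2) of the measured genes around the Bex cluster, with bars of 1 standard error from limma, against the distance in kb of each gene's lower coordinate from that of Bex1. Bex1, which was chosen for its decrease, is at -2.74, and the other genes lie between -0.21 and 0.35.

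Because the Bex genes are X-linked, the sex-linked genes were read as well. Eif2s3y, a Y-linked translation factor gene, lay between 8.69 and 8.93 on all arrays and Xist, the RNA of the inactive X chromosome, between 5.45 and 5.68, and Kdm5d and Uty between 7.12 and 7.20 and between 7.69 and 7.91, so that no array stood apart. None of the 4 measured sex-linked genes passed the threshold or had an unadjusted p under 0.05 by limma.

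No gene of the signalling and RNA-binding lists in which Bex proteins have been placed passed the threshold. Of 8 listed Bex and Tceal relatives 5 were measured and none passed, at a median difference of -0.10, and Bex6, on another chromosome, was dim at 3.08 to 3.19. Of 19 genes of neurotrophin signalling 13 were measured. None passed the threshold, 1 had an unadjusted p under 0.05 by limma, and the median was -0.02. That gene was Ngfr, the p75 receptor, which read 5.66 and 5.59 against 5.86 and 5.87, higher in both knockout hearts by 0.24. Bdnf, a ligand of the family, was at -0.61, which rests on Junf/f replicate 1, where it read 7.93 against 6.59 to 6.69 on the other arrays. Maged1, an adaptor that binds the receptor, differed by -0.04 and Sort1, its coreceptor, by 0.08. Without Junf/f replicate 2, Bdnf passed. By the methods' t-test no gene of any list passed other than 1 fibroblast and 2 skeletal muscle markers.

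Bex1 has been linked to transcripts with AU-rich elements, so the proteins that bind these elements and inflammatory genes that carry them were listed. None of 10 measured binding proteins passed or had an unadjusted p under 0.05 by limma, with Elavl1, which stabilises such transcripts, at 0.03 and Zfp36, which promotes their decay, at 0.05. None of 16 inflammatory genes passed either, at a median of -0.01, which was -0.03 to -0.02 with 1 array left out. An unadjusted p under 0.05 by limma was reached by 3. These were the chemokine Ccl7 at -0.36, the macrophage growth factor Csf1 at -0.32 and the prostaglandin synthase Ptgs2 at 0.28. Tnf differed by 0.07, Il1b by 0.25 and Il6, dim on all arrays, by -0.06. Of 11 measured genes of regenerating and fetal muscle none passed, 1 had an unadjusted p under 0.05 by limma, and the median was 0.09. Myog, a factor of muscle differentiation, was at 0.09 and embryonic myosin (Myh3) at 0.00. Chrng, the fetal subunit of the muscle acetylcholine receptor, was at 0.01 by its brightest probe set, whereas 1 of its 2 other probe sets passed as higher at 0.43. Bex1 is induced in failing hearts, and of 10 measured genes of heart failure and the fetal program Postn, a matrix protein of remodeling tissue, passed as higher at 1.15, a call that was lost at 0.93 without Junf/f replicate 2. Skeletal actin (Acta1) at -0.80, Myh7 at -0.72, Nppa at 0.42 and Nppb at -0.27 did not pass on all arrays. Leaving out 1 array changed this for each of them. Acta1 passed at -1.28 and Myh7 at -1.14 without Jun delta mu replicate 2, Nppa passed at 0.68 without Junf/f replicate 2, and Ctgf, a matricellular growth factor, passed at 0.94 without Jun delta mu replicate 1. Nppb passed at -0.85 without Junf/f replicate 1 but was at 0.30 without Junf/f replicate 2, so its direction depends on the control hearts.

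**Figure D4:**
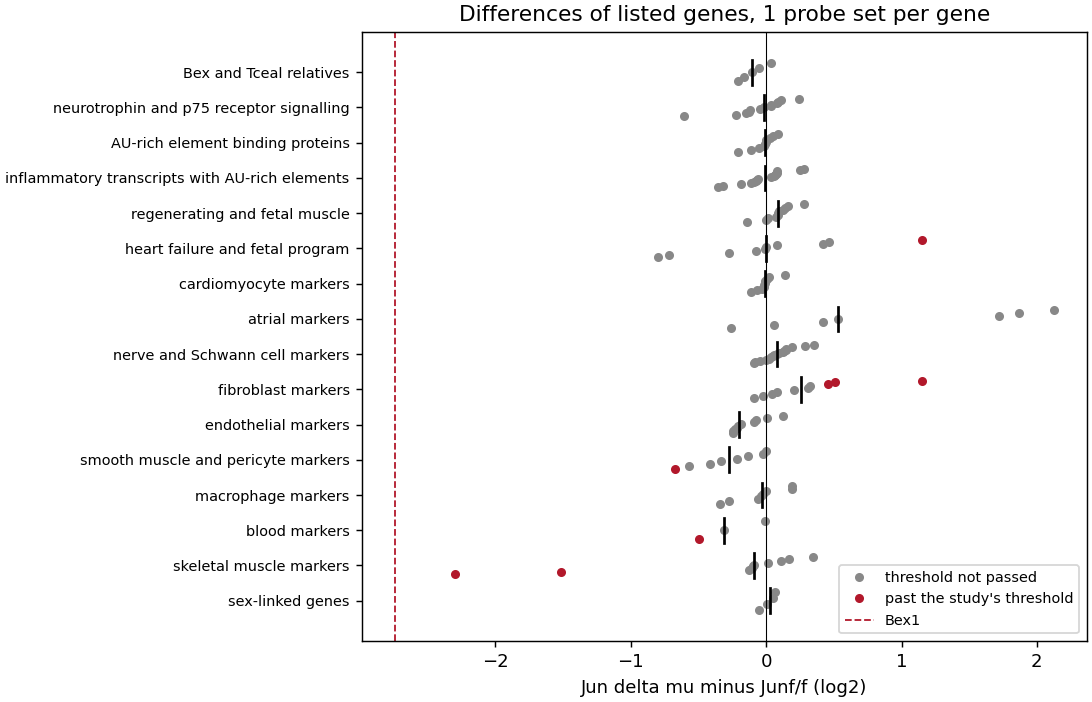
Jun delta mu minus Junf/f (log2) of the genes of each list, 1 point per gene by its brightest probe set, red where past the study's threshold, with a black bar at the list's median and a dashed line at Bex1. Bex1 at -2.74 was chosen for its decrease, the largest on the arrays, and the lowest listed genes are Mybpc2 at -2.30 and Casq1 at -1.52.

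Markers of the other cells of the heart were read beside Bex1. Their lists were chosen with earlier results of these data known. Mybpc2 and Postn, both on these lists, are genes that the paper reported from the same arrays. Counts set beside the share of all probe sets therefore describe the lists and are no test of them. Of 17 measured markers of nerve and Schwann cells none passed the threshold, 1 had an unadjusted p under 0.05 by limma, and the median was 0.08. With 1 array left out the median was 0.04 to 0.15. Their mean log2 signal was 5.10 and 5.18 in control and 5.20 and 5.25 in knockout hearts. Of the 17, 14 had a difference above 0. Higher on both knockout arrays than on both controls were 6, against 17.3% of all probe sets. The gene with an unadjusted p under 0.05 by limma was Chgb, at 0.36. Stmn2, a neuronal protein of growing axons, read 6.98 to 7.04 and Dbh, the noradrenaline enzyme of sympathetic nerves, 7.65 to 7.98, with overlapping groups. Snap25, Tubb3, Gap43, Nefl and Nefm were dim at 2.93 to 3.98, which leaves little room for a decrease to show. Of 10 skeletal muscle markers 2 passed as lower, Mybpc2 and the fast calsequestrin Casq1, and none as higher, against 0.959% and 0.568% of all probe sets. Both calls held with any 1 array left out. The list's mean was 5.30 and 5.34 against 4.94 and 4.99, but its median difference was -0.09 and 4 of the 10 were above 0. Tnni2, the fast skeletal troponin I, was at 0.34 and passed as higher at 0.47 without Jun delta mu replicate 2. The fast myosin heavy chains that define skeletal fibres differed by 0.01 for Myh1, -0.11 for Myh2 and -0.09 for Myh4. They read 4.38 to 4.46, 4.98 to 5.15 and 3.11 to 3.35 over all arrays. Myh4 was dim, which leaves little room for a decrease to show. From a level between those of Myh1 and Myh2, B3galt2 fell from a mean of 4.69 in control to 3.40 in knockout hearts. How low the probe sets of Myh1 and Myh2 can read was not tested. Of 10 fibroblast markers 3 passed as higher, Postn, Mfap5 and Pi16, against 0.568% of all probe sets. The list mean was 9.86 and 9.74 against 10.02 and 10.18, and the median difference was 0.26. Of the 10, 7 read higher on both knockout arrays than on both controls, against 17.3% of all probe sets. An unadjusted p under 0.05 by limma was reached by 5. Of 8 smooth muscle and pericyte markers Cnn1 passed as lower at -0.67, with a list mean of 9.11 and 8.93 against 8.59 and 8.86. Lower on both knockout arrays than on both controls were 4 of the 8, against 16.7% of all probe sets, at a median difference of -0.28. The Cnn1 call was lost without Junf/f replicate 1 at -0.42 and without Jun delta mu replicate 1 at -0.45. Of 3 measured blood markers Alas2 passed as lower at -0.49, with a list mean of 7.05 and 6.66 against 6.66 and 6.51. The Alas2 call held only without Jun delta mu replicate 1, at -0.77, and was lost without each of the other arrays, down to -0.22 without Jun delta mu replicate 2. None of the 10 cardiomyocyte, 10 endothelial, 8 macrophage and 7 atrial markers passed, of which 0, 1, 2 and 0 had an unadjusted p under 0.05 by limma. Of the 10 endothelial markers 8 read lower on both knockout arrays than on both controls, against 16.7% of all probe sets, at a median of -0.20 and a list mean of 9.02 and 9.07 against 8.90 and 8.92, and 3 had an unadjusted p under 0.05 by the methods' t-test. The part of these cells in the Bex1 values was not tested.

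The genes whose array profile came closest to that of Bex1 were mostly other strongly lower genes. Likeness was measured as the distance between profiles over the 4 arrays, each centred on its own mean, where 0 is the same profile. The median over all probe sets was 2.90. Profiles were not scaled, so a large drop in itself brings a gene close to Bex1. Mybpc2 was closest at 0.96, with 7.82 and 7.45 in control and 5.26 and 5.42 in knockout hearts. Casq1 followed at 1.47, Jun at 1.52, the uncharacterised 1700120C14Rik at 1.61, Myot, a protein of the Z-disc, at 1.64 and Lrrcc1, a protein of centrosomes, at 1.75. All 6 were higher on both control arrays than on both knockout arrays, which this measure favours. 1700120C14Rik came nearest to the spread of Bex1, with 8.67 and 8.72 against 7.14 on Jun delta mu replicate 1 and 7.91 on replicate 2. Myot, by contrast, was at 8.63 and 8.53, slightly lower in the second knockout heart. These distances come from the arrays on which Bex1 was chosen and describe those arrays alone.

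**Figure D5:**
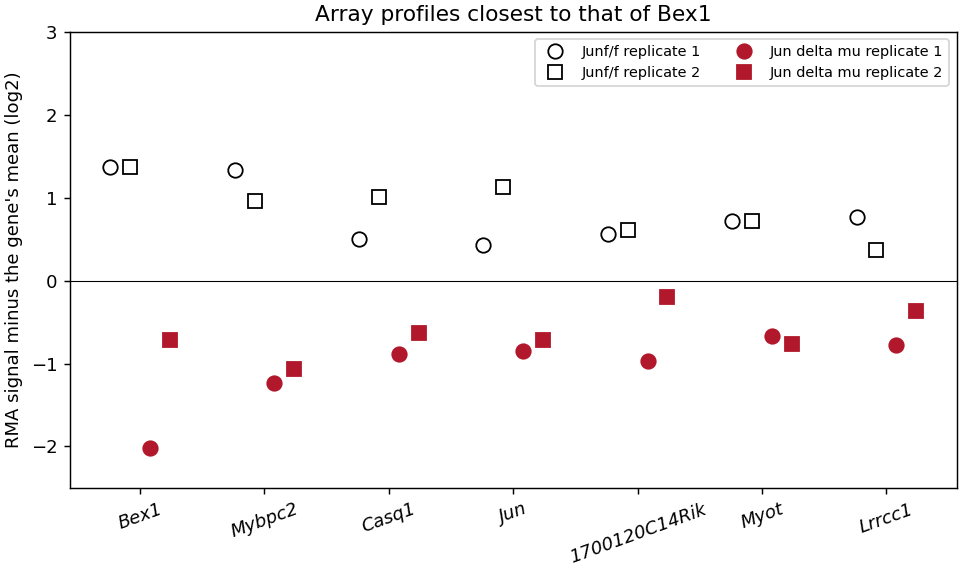
RMA signal minus the gene's mean over the 4 arrays (log2) for Bex1 and the 6 genes with the closest profile, in order of distance from left to right, with symbols as in the plot of Bex signals. Each gene is above its mean in both Junf/f hearts and below it in both Jun delta mu hearts, and Bex1 on Jun delta mu replicate 1 is the lowest point.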

How the data were processed

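Total RNA of whole hearts was hybridized to Affymetrix mouse expression arrays, 1 per heart. The values deposited by the authors are log2 RMA signals, background-corrected, normalized and summarised per probe set, and the submitters' notes name RMA and the R package oligo without versions, while the methods name the AGCC software for raw data. Of 45101 probe sets, 64 control probe sets were left out and 45037 entered a linear model (R 4.3.3, limma 3.58.1, functions lmFit and eBayes, genotype as the only term, two-sided, Benjamini-Hochberg adjustment over all), with no further filter. The methods name Student's test, which was an alternative. The number of arrays limits the precision. Names came from the platform annotation (34945 probe sets with 1 symbol), coordinates and promoters from RefSeq on GRCm38.p6, and a gene with several probe sets was read by its brightest. Members, lists and tests were chosen with earlier results of these data known. Named by rule were all members, genes past the threshold and of highest signal in each list and near the cluster, all sex-linked and atrial markers and the 6 closest profiles. Other list genes were named for their role or values after these were seen, and the cyclic AMP response element was likewise added then. Alternatives were other normalizations, linear means, a replicate block, array weights, another prior, removal of the dimmest 40% of probe sets, the methods' t-test and leaving out each array. Each member has 1 probe set, so the planned median over probe sets was not run. The fit was tested on simulated data. Figures were drawn with matplotlib 3.10.9.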

Additional observations from a re-analysis of the deposited data

How the results depend on the processing

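The direction of the Bex1, Bex4 and Ngfrap1 differences was kept under every alternative run. Bex1 lay between -2.74 and -2.60 with other normalizations, linear means, array weights or the replicate block, and between -3.39 and -2.09 when 1 array was left out. Leaving out 1 array gave -0.15 to 0.06 for Bex2 (0.064 without Jun delta mu replicate 1, a reversed direction), -0.22 to -0.05 for Bex4 and -0.16 to -0.12 for Ngfrap1, and no paralog passed the threshold in any setting. Removing the dimmest 40% of probe sets removed Bex2 and Bex4. With 1 array left out, the single heart remaining for a genotype takes its spread from the other genotype. The count of probe sets past the study's threshold was 739 to 3452 on 3 arrays, the highest without Junf/f replicate 2, and 200 by the methods' t-test, with 0 after Benjamini-Hochberg adjustment; the cause was not tested. Of the genes on the lists 7 passed on all arrays and 10 to 17 on 3 arrays, with the calls of Postn, Cnn1 and Alas2 each lost in at least 1 of these fits, and of the genes near the cluster 0 to 1, Gprasp2 at -0.46 without Junf/f replicate 1 and 5730412P04Rik without Jun delta mu replicate 1. The labels name no pairing of hearts. Differences between the replicates of 1 genotype hardly went with those of the other (correlation 0.03 across probe sets), which cannot settle whether hearts were matched by litter or batch. With the replicate block the differences were the same and 683 probe sets passed. Signals near the lower end of the arrays limit what can be said of Bex2 and Bex4.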

Other observations

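Bex4 had the same deposited value on both Jun delta mu arrays to the last decimal given. This was so for 324 probe sets, or 0.719% of those tested, and for 220 on the Junf/f arrays.

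Other genes also set the knockout hearts apart from each other. The inducible heat shock gene Hspa1b read 5.75 on Jun delta mu replicate 1 and 8.08 on replicate 2 by its probe set with the widest gap, with 6.58 and 7.49 in the control hearts. The neutrophil genes S100a8 and S100a9 ran the other way, at 8.91 and 9.70 on replicate 1 and 6.65 and 7.47 on replicate 2. Unlike Bex1, these genes overlapped between the genotypes.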
